A study of Mus musculus with 9 samples.

Results

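The 9 genes described here encode the mouse receptors for the Fc portion of IgG and the proteins that carry their signal: the activating receptors Fcgr1, Fcgr3 and Fcgr4, the inhibitory receptor Fcgr2b, the neonatal receptor Fcgrt, the adaptors Fcer1g and Tyrobp, the kinase Syk and the phosphatase Inpp5d. They were taken by name from the 23238 gene symbols counted in the series. All 9 passed the filter on low counts that left 10107 symbols for testing.

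The libraries were QuantSeq 3ʹ RNA-seq libraries of sorted monocytes, and each was a pool of 5 female wild-type C57BL/6N mice (12 weeks of age, sampled on day 1). Nor_Bl_mono were blood monocytes of normal mice, for which no injection is described. NMO_Bl_mono and NMO_Br_mono were blood and brain monocytes of the NMO-like model, in which IgG of patients with neuromyelitis optica (NMO-IgG) was injected into the striatum on 1 side together with human complement. Each group had 3 libraries. Cells were gated as CD45+CD11b+P2ry12-Ly6C+Ly6G-. Brain cells were freed from tissue by an enzyme digestion at warm temperature and blood cells were not, so tissue and isolation cannot be told apart, and no library of mice given control IgG was analysed here. Whether the pools of normal and NMO mice were processed together is not given in the sources used here, and p-values measure only the spread between these pools.

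Fcγ receptors bind the constant part of IgG on coated cells and immune complexes, the form in which an autoantibody meets a phagocyte. The activating receptors sit in the membrane with the Fcer1g chain and signal through it. Its paired tyrosines, the ITAM, are phosphorylated by Src-family kinases and then hold Syk. Tyrobp (DAP12) is a sister adaptor that serves TREM and related receptors in the same cells. Fcgr2b carries an inhibitory motif, the ITIM, which recruits the lipid phosphatase SHIP1, encoded by Inpp5d. Fcgrt encodes the heavy chain of the neonatal receptor, which binds IgG inside endosomes and returns it to the cell surface.

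The coding bases of these motifs are shown because they encode the tyrosines at which the adaptors and Fcgr2b are phosphorylated. They were read from the principal GENCODE vM21 transcripts (mm10), and the capitals mark the tyrosine codons.
Fcer1g ITAM: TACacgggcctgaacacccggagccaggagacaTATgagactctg
Tyrobp ITAM: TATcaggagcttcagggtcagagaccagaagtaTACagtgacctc
Fcgr2b ITIM: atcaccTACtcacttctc
The ITAM of Fcer1g starts at codon 65 of 86, that of Tyrobp at codon 92 of 114, and the ITIM of Fcgr2b at codon 317 of 340, so all 3 motifs lie near the end of the protein. Among the 9 genes the ITAM pattern was found in Fcer1g and Tyrobp only. The ITIM pattern is short, and its letters also occurred in Fcgr1 (codons 141 and 303), Fcgr4 (codon 219), Fcgrt (codon 57), Fcer1g (codon 41) and Tyrobp (codon 90), so a match of this pattern alone does not set Fcgr2b apart.

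Fcgr2b (mm10, chr1:170958617-170976547, minus strand), Fcgr4 (chr1:171018920-171029761, plus strand), Fcgr3 (chr1:171051174-171064935, minus strand) and Fcer1g (chr1:171229572-171234365, minus strand) lie close together on chromosome 1. Inpp5d is on the same chromosome (chr1:87620312-87720507). Fcgr1 is on chromosome 3 (chr3:96282909-96293969), Tyrobp and Fcgrt are on chromosome 7 (chr7:30413760-30417585 and chr7:45092990-45103851) and Syk is on chromosome 13 (chr13:52583173-52648792). The receptors are related in sequence, and a read with several alignments was also counted. In the last 500 bases of each gene's principal transcript, where 3ʹ libraries are read, 0 of 426 runs of 75 bases stood unchanged in a transcript of another gene, for each of the 9 genes.

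The depth was 7584649 to 10419647 counts per library, and a count of 3, taken as the floor, corresponded to 0.273 to 0.432 CPM (counts per 1000000, scaled with TMM factors). NMO_Bl_mono replicate 3 and NMO_Br_mono replicate 2 stood apart from the rest. Among genes that reached 50 CPM in both of the group's other libraries, 22.3% in the former and 8.26% in the latter were at or under the floor, against at most 1.94% in each library besides these. The log2 fold changes of the 9 genes are given with and without these libraries, and the other values rest on all libraries unless stated. In these bulk libraries, fewer cells of a type and less RNA per cell cannot be told apart. The summed level of 12 monocyte markers was 6399 to 8549 CPM in Nor_Bl_mono, 4570 to 8203 CPM in NMO_Bl_mono and 5331 to 8862 CPM in NMO_Br_mono, and no marker of that list was at 0 throughout a group.

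The comparison of NMO_Br_mono with NMO_Bl_mono asks what differs between monocytes in the lesioned brain and those still in the blood of the same model. The activating receptors Fcgr1 and Fcgr3 were measured at higher levels in NMO_Br_mono replicates 1 and 3 than in any blood library, and replicate 2 lay near the blood libraries for both. The adaptors Fcer1g and Tyrobp, the kinase Syk and the phosphatase Inpp5d overlapped between all groups.

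Fcgr1, the high-affinity IgG receptor that marks monocytes and macrophages, was measured at 175, 35.5 and 132 CPM in NMO_Br_mono replicates 1, 2 and 3. It was at 33.6, 16.2 and 0 CPM in NMO_Bl_mono, and at 27.2, 36.7 and 19.2 CPM in Nor_Bl_mono. All NMO_Br_mono libraries were above all NMO_Bl_mono libraries, by a small margin for replicate 2, which lay inside the range of Nor_Bl_mono. On the log2 scale, NMO_Br_mono over NMO_Bl_mono was 2.78 (standard error 1.63, 95% confidence interval -0.72 to 6.28, adjusted p = 0.892), and over Nor_Bl_mono it was 2.04 (standard error 1.58, adjusted p = 1). Without the libraries that stood apart the values were 2.64 (adjusted p = 0.246) and 2.49 (adjusted p = 0.134). With 1 library left out, the value over NMO_Bl_mono ran from 2.21 (without NMO_Bl_mono replicate 3) to 3.81 (without NMO_Bl_mono replicate 1).

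Fcgr3, the low-affinity activating receptor of monocytes, neutrophils and NK cells, was measured at 451, 120 and 470 CPM in NMO_Br_mono. Its levels were 124, 185 and 98.5 CPM in NMO_Bl_mono, and 119, 220 and 162 CPM in Nor_Bl_mono. Replicates 1 and 3 from brain were above every blood library, and replicate 2 was below 4 of the 6 blood libraries. Its log2 fold change was 1.35 over NMO_Bl_mono (standard error 0.60, 95% confidence interval 0.07 to 2.63), with an unadjusted p = 0.0398 in edgeR's quasi-likelihood test and an adjusted p = 0.802. Over Nor_Bl_mono it was 1.06 (standard error 0.59, adjusted p = 0.773). Without the libraries that stood apart it was 1.59 (adjusted p = 0.231) and 1.48 (adjusted p = 0.135).

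Fcgr4, the activating receptor that binds IgG2 subclasses on monocytes and neutrophils, behaved differently across the brain libraries. Its level was 31.8, 121 and 25.8 CPM in NMO_Br_mono, so its highest value was in replicate 2, where Fcgr1 and Fcgr3 were lowest. In NMO_Bl_mono it was at 27.9, 14.5 and 0 CPM, and in Nor_Bl_mono at 22.6, 0 and 0 CPM. All NMO_Br_mono libraries were above all Nor_Bl_mono libraries, and the fitted change was 2.99 on the log2 scale (standard error 2.63, adjusted p = 1). Over NMO_Bl_mono it was 2.08 (standard error 2.54, adjusted p = 1), and without the libraries that stood apart it was 0.46 and, over Nor_Bl_mono, 1.95. The value over NMO_Bl_mono was 0.86 with limma-voom and 5.00 with a replicate block, so its size depended on the model.

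**Figure D1:**
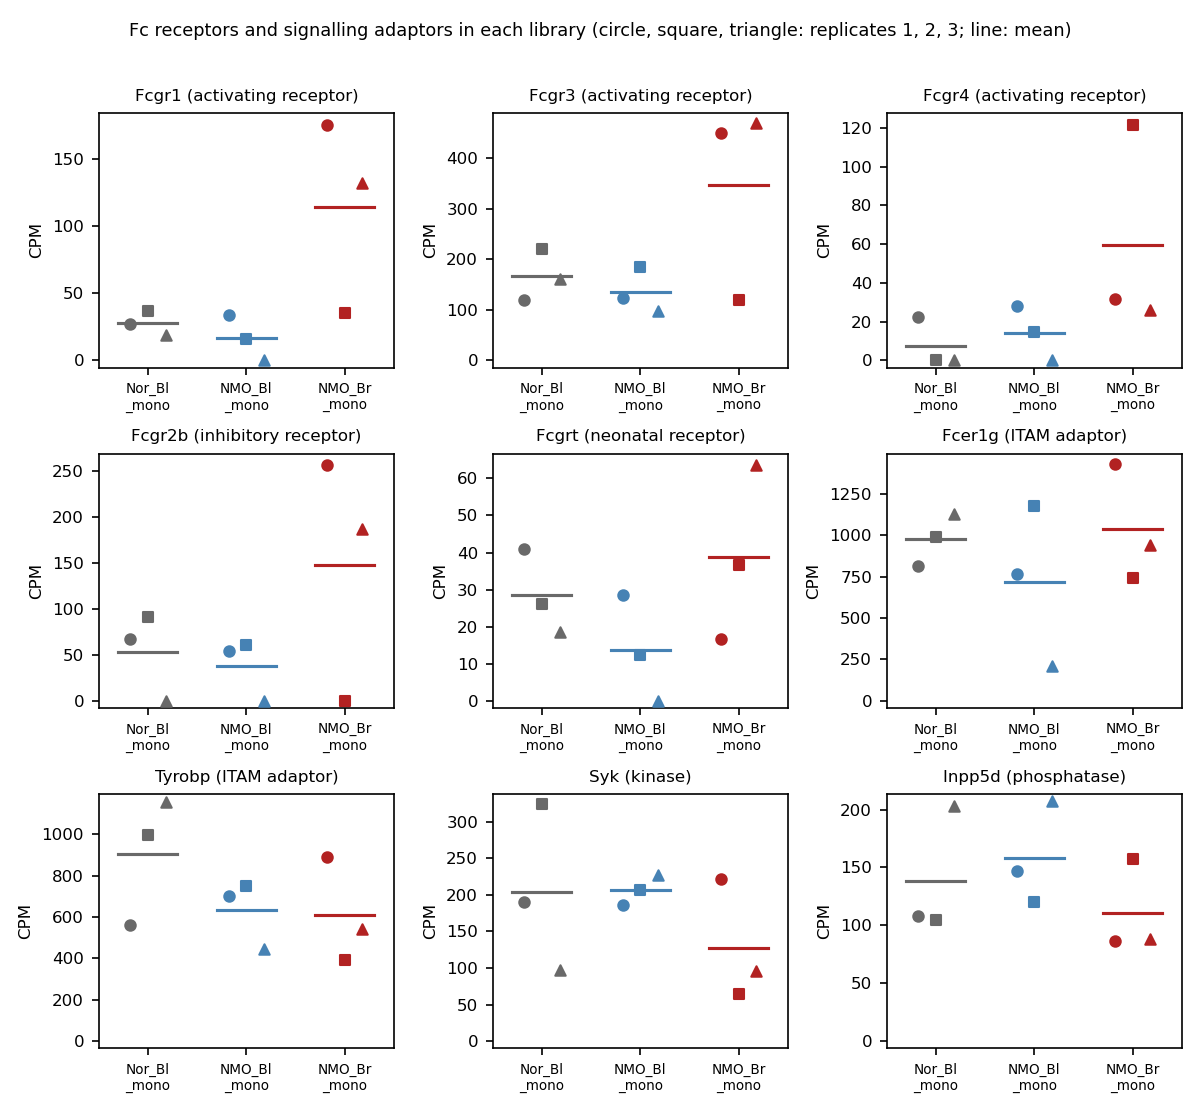
Levels of the 9 genes in CPM (vertical axis, linear, own scale for each gene) in the 3 groups, with circle, square and triangle for replicates 1, 2 and 3 and a line for the mean. NMO_Br_mono replicates 1 and 3 were above all blood libraries for Fcgr1 (175 and 132 CPM), Fcgr3 (451 and 470 CPM) and Fcgr2b (256 and 187 CPM), while replicate 2 was highest for Fcgr4 (121 CPM).

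The inhibitory receptor Fcgr2b, which restrains the activating receptors when both bind the same complex, was measured at 256, 0 and 187 CPM in NMO_Br_mono. In NMO_Bl_mono it was at 53.9, 61.1 and 0 CPM, and in Nor_Bl_mono at 67.0, 91.4 and 0 CPM. One library of each group thus had no count at all, among them both libraries that stood apart, and the other libraries from brain were above all others from blood. Fitted over all libraries, its log2 fold change was 1.95 over NMO_Bl_mono (standard error 2.24, adjusted p = 1) and 1.48 over Nor_Bl_mono (standard error 2.21, adjusted p = 1). Without the libraries that stood apart it was 1.96 (adjusted p = 0.841) and 2.09 (adjusted p = 0.606). The value over NMO_Bl_mono was 0.47 with limma-voom and 5.79 with a replicate block, and it ran from 1.28 (without NMO_Br_mono replicate 1) to 2.55 (without NMO_Br_mono replicate 2) with 1 library left out.

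Fcgrt had 16.6, 36.5 and 63.5 CPM in NMO_Br_mono, 28.6, 12.3 and 0 CPM in NMO_Bl_mono and 41.0, 26.0 and 18.7 CPM in Nor_Bl_mono. The groups overlapped throughout, and the log2 fold change of NMO_Br_mono was 1.51 over NMO_Bl_mono (standard error 1.95, adjusted p = 1) and 0.44 over Nor_Bl_mono (standard error 1.91, adjusted p = 1). It was 0.99 and 0.51 without the libraries that stood apart. The value over NMO_Bl_mono ran from 0.94 (without NMO_Bl_mono replicate 3) to 2.66 (without NMO_Bl_mono replicate 1).

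Fcer1g, the ITAM chain that the activating receptors need at the cell surface, was measured at 1433, 744 and 940 CPM in NMO_Br_mono. It was at 768, 1176 and 211 CPM in NMO_Bl_mono and at 813, 992 and 1131 CPM in Nor_Bl_mono. The low value was that of NMO_Bl_mono replicate 3, and the remaining 8 libraries overlapped. Its log2 fold change was 0.53 over NMO_Bl_mono (95% confidence interval -0.51 to 1.58, adjusted p = 1) and 0.09 over Nor_Bl_mono (95% confidence interval -0.95 to 1.13, adjusted p = 1). These were 0.30 and 0.29 without the libraries that stood apart.

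Tyrobp had 892, 392 and 542 CPM in NMO_Br_mono, 703, 748 and 446 CPM in NMO_Bl_mono and 560, 999 and 1157 CPM in Nor_Bl_mono. No group stood apart from another. Its log2 fold change was -0.06 over NMO_Bl_mono (95% confidence interval -0.92 to 0.81, adjusted p = 1) and -0.57 over Nor_Bl_mono (95% confidence interval -1.44 to 0.30, adjusted p = 1), and these were the narrowest intervals among the 9 genes. Without the libraries that stood apart it was -0.0038 and -0.32.

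Syk, the tyrosine kinase that docks on phosphorylated ITAMs, had 221, 64.5 and 96.2 CPM in NMO_Br_mono, 186, 206 and 227 CPM in NMO_Bl_mono and 190, 324 and 96.9 CPM in Nor_Bl_mono. NMO_Br_mono replicates 2 and 3 were below every blood library, replicate 3 by a small margin (96.2 against 96.9 CPM in Nor_Bl_mono replicate 3). Replicate 1 was among the blood libraries. The log2 fold change was -0.70 over NMO_Bl_mono (standard error 0.63, adjusted p = 1) and -0.68 over Nor_Bl_mono (standard error 0.63, adjusted p = 1), and without the libraries that stood apart it was -0.29 and -0.34.

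Inpp5d had 86.4, 158 and 88.1 CPM in NMO_Br_mono, 147, 120 and 207 CPM in NMO_Bl_mono and 108, 105 and 203 CPM in Nor_Bl_mono. Its order across the brain libraries was the reverse of that of Syk, with the highest value in replicate 2. The log2 fold change was -0.52 over NMO_Bl_mono (standard error 0.62, adjusted p = 1) and -0.33 over Nor_Bl_mono (standard error 0.62, adjusted p = 1), and without the libraries that stood apart it was -0.60 and -0.65.

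Between NMO_Br_mono and NMO_Bl_mono, 0 of the 9 genes passed an adjusted p of 0.05 in edgeR's test, beside 0.247% of all genes tested. At the unadjusted threshold of the study, an unadjusted p under 0.05 and a 1.2-fold difference, 1 of 9 passed (Fcgr3), beside 5.32% of all genes. The groups did not overlap, with NMO_Br_mono higher, for 1 of 9 (Fcgr1), beside 6.3% of all genes. Fcgr3 no longer passed when NMO_Br_mono replicate 1 or 3, NMO_Bl_mono replicate 1 or 3, or Nor_Bl_mono replicate 2 was left out. DESeq2 called 0 of 9 at either threshold, beside 2.91% of all genes at the adjusted one and 7.67% at the unadjusted one. Limma-voom with sample quality weights called 0 after adjustment (0.505% of all genes) and 2 (Fcgr1 and Fcgr3) before it, beside 12.8% of all genes. The log2 fold change was above 0 for 6 of the 9 genes (all 5 receptors and Fcer1g), beside 51.4% of all genes tested. The median was 1.35 over the 9 genes and 0.05 over all genes tested.

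Between NMO_Br_mono and Nor_Bl_mono, which differ by tissue, isolation and the injection together, 0 of 9 genes passed the adjusted threshold (0.247% of all genes) and 0 the unadjusted threshold (5.82% of all genes). No overlap with NMO_Br_mono higher was seen for 1 of 9 (Fcgr4), beside 6.07% of all genes. At the unadjusted threshold, DESeq2 called 0 of 9 beside 8.42% of all genes, and limma-voom 3 of 9 (Fcgr1, Fcgr3 and Fcgr4) beside 11.7%. Both called 0 of 9 after adjustment, beside 3.52% (DESeq2) and 0.336% (limma-voom) of all genes. The 6 genes above 0, beside 46.3% of all genes, were the same as against NMO_Bl_mono, a comparison that shares the brain libraries. The median was 0.44 over the 9 genes and -0.12 over all genes.

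The comparison of NMO_Bl_mono with Nor_Bl_mono asks whether blood monocytes differed after the injection. Here 0 of 9 genes passed the adjusted threshold (0% of all genes), 0 passed the unadjusted threshold (0.712% of all genes) and 0 had groups without overlap in either direction (6.8% of all genes). DESeq2 and limma-voom called 0 of 9 at either threshold, beside 2.51% and 4.88% of all genes at the unadjusted one. They called 0.526% and 0% of all genes at the adjusted one. The log2 fold change was -0.74 for Fcgr1 (standard error 1.53), -0.29 for Fcgr3 (standard error 0.59), -0.45 for Fcer1g (standard error 0.49) and -0.52 for Tyrobp (standard error 0.41), each with an adjusted p = 1. The 95% confidence interval of Fcgr3 ran from -1.55 to 0.96 and that of Fcer1g from -1.49 to 0.60, so neither a rise nor a fall is shown. Without the libraries that stood apart the values were -0.15 for Fcgr1, -0.11 for Fcgr3, -0.0078 for Fcer1g and -0.32 for Tyrobp.

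**Figure D2:**
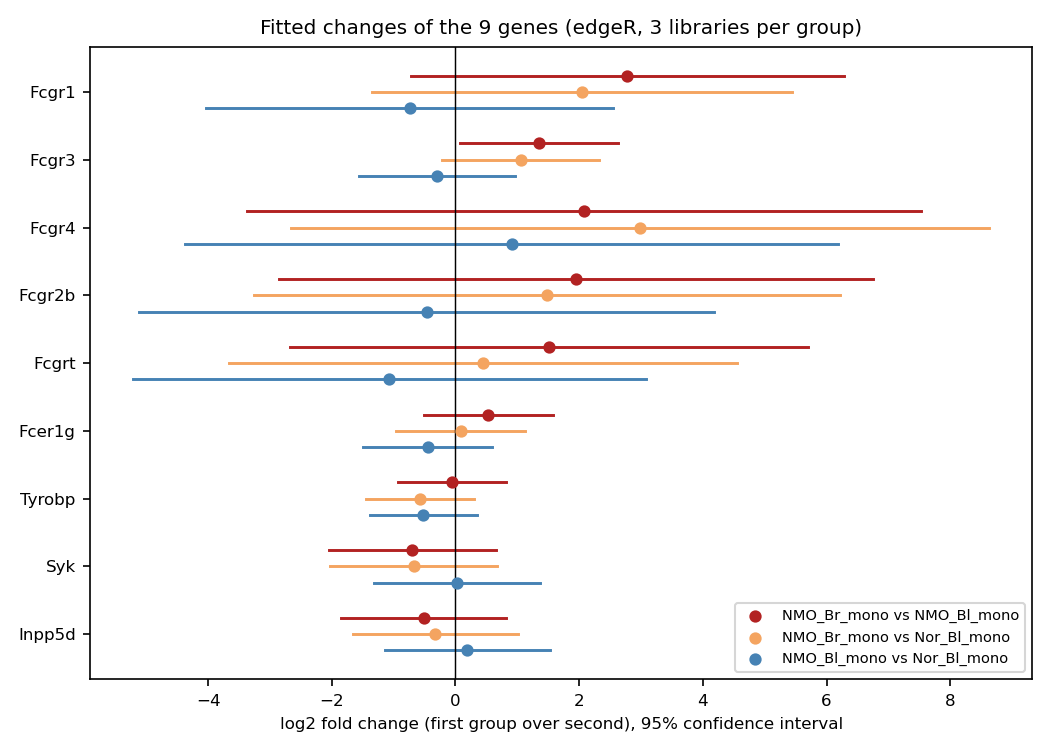
Fitted log2 fold change (points) with 95% confidence interval (bars) of the 9 genes in the 3 comparisons, first group over second. The interval of Fcgr3 for NMO_Br_mono over NMO_Bl_mono (0.07 to 2.63) lay above 0, and all the other intervals drawn crossed 0.

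Ratios within a library do not depend on how libraries are scaled. The counts of the 4 Fcγ receptors together amounted to 0.637, 0.372 and 0.867 per Fcer1g count in NMO_Br_mono replicates 1, 2 and 3. The same ratio was 0.312, 0.236 and 0.467 in NMO_Bl_mono and 0.289, 0.351 and 0.160 in Nor_Bl_mono. NMO_Br_mono replicates 1 and 3 were therefore above every blood library on this scale too, and replicate 2 was above all but NMO_Bl_mono replicate 3, the library in which Fcgr3 was the only Fcγ receptor counted and Fcer1g was lowest. Counts of Tyrobp per Fcer1g were 0.623, 0.527 and 0.576 in NMO_Br_mono, and from 0.637 to 2.11 in the blood libraries. Brain and blood did not overlap, but by a small margin (0.623 in NMO_Br_mono replicate 1, 0.637 in NMO_Bl_mono replicate 2). The value of 2.11 was that of NMO_Bl_mono replicate 3, a library that stood apart. How often ratios of other genes separate brain from blood was not tested.

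The balance of activating to inhibitory receptors could be given where Fcgr2b was counted. The counts of Fcgr1, Fcgr3 and Fcgr4 together were 2.57 and 3.35 per Fcgr2b count in NMO_Br_mono replicates 1 and 3. They were 3.45 and 3.54 in NMO_Bl_mono replicates 1 and 2, and 2.51 and 2.81 in Nor_Bl_mono replicates 1 and 2. Where both kinds of receptor were counted, the brain values thus lay inside the range of the blood values, although Fcgr1, Fcgr3 and Fcgr2b were each measured there at higher levels than in any blood library.

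The share of each receptor among the Fcγ receptor counts of a library compares libraries, and it does not rank the receptors, because counts were not divided by transcript length. The share of Fcgr1 was 19.2%, 12.8% and 16.2% in NMO_Br_mono, 14.0%, 5.85% and 0% in NMO_Bl_mono, and 11.6%, 10.5% and 10.6% in Nor_Bl_mono. Its mean was 16.0% ± 3.17 (SD, n = 3) in NMO_Br_mono and 10.9% ± 0.571 in Nor_Bl_mono. The libraries of these groups did not overlap, by a small margin (12.8% against 11.6%), and NMO_Bl_mono replicate 1 (14.0%) lay inside the brain range. Fcgr4 took 43.8% of the counts in NMO_Br_mono replicate 2 (95% Wilson interval 42.0% to 45.6%) but 3.48% and 3.16% in replicates 1 and 3 (95% Wilson intervals 3.10% to 3.90% and 2.80% to 3.56%). Brain libraries thus differed from each other in which receptor held the counts. NMO_Br_mono replicate 2 was a library that stood apart, with 8.26% of the genes checked at or under the floor. In NMO_Br_mono replicate 2, Fcgr2b had 0 of 2911 Fcγ receptor counts, where the floor of 3 counts would be 0.103%, against 28.0% and 23.0% in replicates 1 and 3. The intervals and the floor cover counting error only, with each count taken as an independent draw. No removal of duplicate reads is described in the sources used here.

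**Figure D3:**
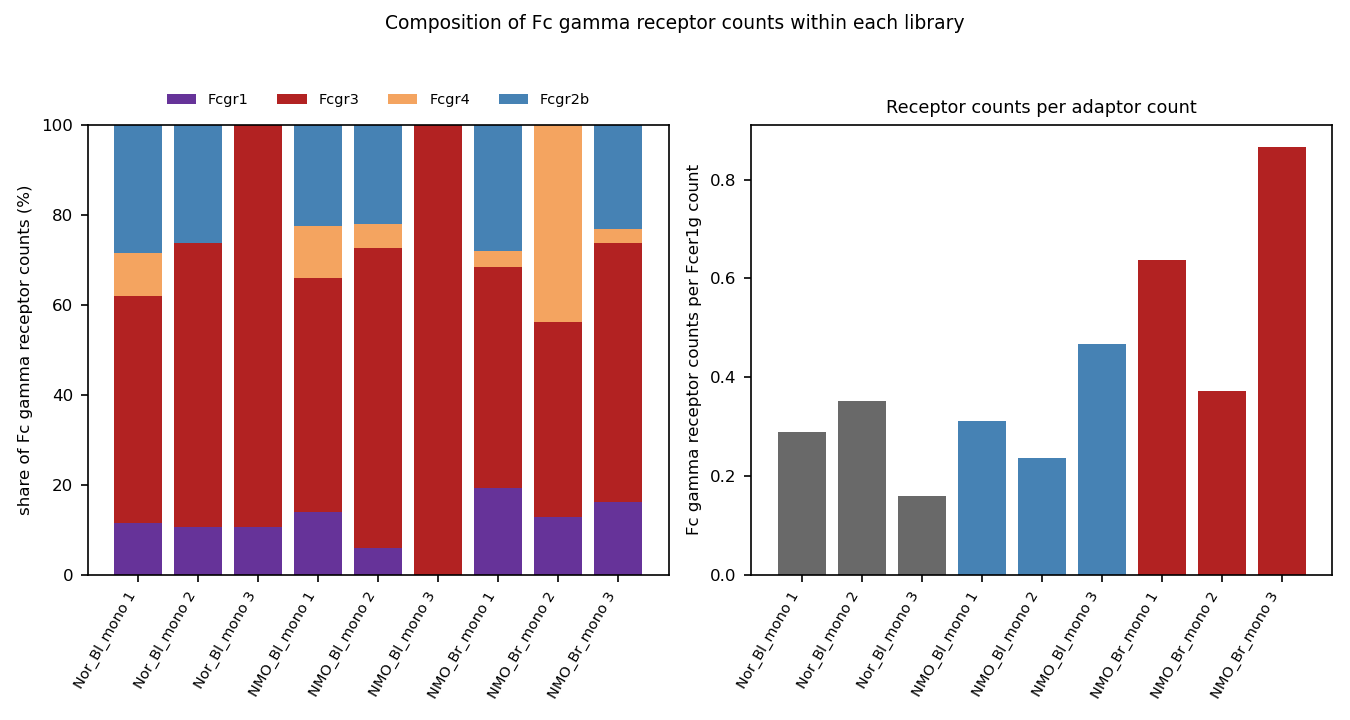
Left, share of each library's Fcγ receptor counts (%) held by Fcgr1, Fcgr3, Fcgr4 and Fcgr2b. Right, Fcγ receptor counts per Fcer1g count, with bars starting at 0 and coloured by group. NMO_Br_mono replicate 2 differed from replicates 1 and 3 in both panels, with 43.8% Fcgr4, 0% Fcgr2b and a ratio of 0.372.

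Other cell types that carry these genes moved with the same groups. NK cells express Fcgr3, Fcer1g, Tyrobp and Syk, and the summed level of 9 NK cell markers was 2303 to 2826 CPM in Nor_Bl_mono and 2702 to 3970 CPM in NMO_Bl_mono. In NMO_Br_mono it was 21.3 to 337 CPM, and Txk was at 0 in all 3 libraries. Fcgr3 was at 451, 120 and 470 CPM in NMO_Br_mono replicates 1, 2 and 3. Microglia express Fcgr1, Fcgr3, Fcer1g and Tyrobp. The summed level of 10 microglia markers was 832 to 976 CPM in NMO_Br_mono, 0.0909 to 244 CPM in NMO_Bl_mono and 143 to 396 CPM in Nor_Bl_mono. Cx3cr1, which monocytes also express, made up 544, 297 and 337 CPM of the brain sums and 322, 254 and 112 CPM of those of Nor_Bl_mono. Of the defining markers, Tmem119 was at 78.4, 0 and 21.0 CPM and P2ry12 at 23.7, 69.7 and 9.95 CPM in NMO_Br_mono, and no marker of that list was at 0 in the whole group. P2ry12 was also counted in blood, at 43.4, 35.0 and 0.920 CPM in Nor_Bl_mono and 16.7, 0.871 and 0 CPM in NMO_Bl_mono. The microglia sum was 976, 945 and 832 CPM in NMO_Br_mono replicates 1, 2 and 3, where Fcgr1 was at 175, 35.5 and 132 CPM. Neutrophils express Fcgr3 and Fcgr4, and the sum of 8 neutrophil markers was 387, 1545 and 1014 CPM in NMO_Br_mono against 85.0 to 301 CPM in the blood libraries. It was highest in replicate 2, the library with the highest Fcgr4. S100a8 and S100a9 made up most of it, and Retnlg, a defining marker, was at 0 in all 3 brain libraries. B cells express Fcgr2b, and the sum of 6 B cell markers was at most 79.8 CPM in any library. In NMO_Br_mono replicates 1, 2 and 3 that sum was 10.6, 37.9 and 0.0995 CPM, and Fcgr2b was at 256, 0 and 187 CPM. Platelets express Fcer1g and Syk, and the sum of 7 platelet markers was 505 to 3159 CPM in Nor_Bl_mono, 630 to 2647 CPM in NMO_Bl_mono and 0 to 39.8 CPM in NMO_Br_mono, where Gp9 and Treml1 were at 0 throughout. The sum of 6 erythroid markers was 898 to 5411 CPM in blood and 1.05 to 402 CPM in brain. The part of these cell types in the values of the 9 genes was not tested.

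The promoters of Fcgr1 and Fcgr3 are shown because they shared the longest run of bases, not because of their levels. Fcgr2b was also high in NMO_Br_mono replicates 1 and 3 (256 and 187 CPM), and its longest run with each of these promoters was 8 bases. RefSeq promoter sequences (GRCm38.p6) were given for 8 of the 9 genes. Among the 28 pairs of these, the longest run of bases shared on the coding strand was that of Fcgr1 and Fcgr3, with 14 bases, and no other pair shared more than 10. The 100 bases before the start site are written 5ʹ to 3ʹ, with the shared run in capitals.
Fcgr1 (chr3:96293970-96294069, minus strand): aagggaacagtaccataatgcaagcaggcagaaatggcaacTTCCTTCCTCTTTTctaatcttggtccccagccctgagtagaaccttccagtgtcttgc
Fcgr3 (chr1:171059395-171059494, minus strand): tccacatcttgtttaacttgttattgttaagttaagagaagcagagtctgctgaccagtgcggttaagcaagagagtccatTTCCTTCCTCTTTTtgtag
The run starts 59 bases before the start site of Fcgr1 and 19 bases before the downstream one of the 2 start sites given for Fcgr3, which lies inside the longer gene model used for the coordinates above. On either strand it stood in promoters of 4 of 27025 genes (0.0148%): Fcgr1, Fcgr3, Dock2 and Entpd1. It was found by comparing the promoters with each other, and a match of letters is a description, not a site. Dock2, a guanine nucleotide exchange factor for Rac, had 251, 157 and 171 CPM in NMO_Br_mono, 363, 325 and 451 CPM in NMO_Bl_mono and 592, 333 and 180 CPM in Nor_Bl_mono, with brain below NMO_Bl_mono and overlapping Nor_Bl_mono. Entpd1, an enzyme that cleaves extracellular ATP, had log2 fold changes of 1.55 over NMO_Bl_mono and 0.95 over Nor_Bl_mono (adjusted p = 1 for both).

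The wider pathway was described with 6 lists of genes around the 9. At an adjusted p of 0.05, 0 genes of any list passed in any comparison by edgeR's test, beside 0% to 0.247% of all genes tested. The counts at the unadjusted threshold follow, to be read beside 5.32% of all genes tested and a median of 0.05 in NMO_Br_mono over NMO_Bl_mono. Among other Fc receptors, 3 of 13 genes could be tested, and the median of their log2 fold changes over NMO_Bl_mono was 1.05. That median was the value of Trim21 (standard error 2.99). The others lay on opposite sides of it, and each was at 0 throughout NMO_Bl_mono or NMO_Br_mono. Fcrls, an Fc receptor-like gene that is also a microglia marker, was at 52.7, 77.5 and 50.5 CPM in NMO_Br_mono and at 0 in all 6 blood libraries, which is at least 177-fold higher than in NMO_Bl_mono against a floor of 3 counts per library (adjusted p = 0.439). Trim21, a cytosolic antibody receptor, was at 4.18, 42.7 and 0 CPM in NMO_Br_mono and overlapped with blood. Fcmr, the IgM receptor, was counted above the floor in 2 blood libraries and in none from brain.

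Receptors that signal through Fcer1g gave 1 of 7 genes tested at the unadjusted threshold in NMO_Br_mono over NMO_Bl_mono, beside 5.32% of all genes. It was Clec4n (Dectin-2), a receptor for fungal mannans. Clec4n was at 321, 156 and 124 CPM in NMO_Br_mono, 5.74, 11.0 and 0 CPM in NMO_Bl_mono and 20.4, 4.12 and 0.102 CPM in Nor_Bl_mono, with all brain libraries above all blood libraries. Its log2 fold change was 5.16 over NMO_Bl_mono (standard error 1.85, adjusted p = 0.802) and 4.61 over Nor_Bl_mono (standard error 1.80, adjusted p = 0.708). Clec4d, which lies with it in a family of C-type lectins, was at 159, 117 and 144 CPM in NMO_Br_mono and at most 87.2 CPM in blood (log2 fold change 1.58 over NMO_Bl_mono, adjusted p = 1). Clec4e (Mincle) overlapped between the groups, with -0.80. Pirb, which was kept in this list although it is an inhibitory receptor, also overlapped, with 0.39. The median log2 fold change of the list was 0.39, against 0.05 over all genes.

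Receptors that signal through Tyrobp were listed together with Hcst, which is itself an adaptor. The list gave 2 of 13 genes at the unadjusted threshold, 1 in each direction, beside 5.32% of all genes. The median was 1.05, against 0.05 over all genes. Klrk1 (NKG2D), a receptor of NK cells, was lower in NMO_Br_mono, at 18.7, 0 and 3.28 CPM against 150, 81.0 and 117 CPM in NMO_Bl_mono (log2 fold change -3.99, standard error 1.56, adjusted p = 0.802). Siglech, also a microglia marker, was at 0, 83.1 and 39.5 CPM in NMO_Br_mono and at most 8.03 CPM in blood. These 2 genes are thus also markers of the cell types whose sums moved between the groups. Trem1 and Sirpb1b, a member of a family of close copies, were the most counted receptors of the list beside Klrk1. Both overlapped between the groups, with log2 fold changes of -0.71 and 0.68 over NMO_Bl_mono.

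The Src-family kinases that phosphorylate ITAMs gave 2 of 5 genes at the unadjusted threshold, in opposite directions, beside 5.32% of all genes. The median was 0.63, against 0.05 over all genes. Fgr, a myeloid member of the family, was at 389, 268 and 458 CPM in NMO_Br_mono, 163, 221 and 43.1 CPM in NMO_Bl_mono and 204, 187 and 94.0 CPM in Nor_Bl_mono. All brain libraries were above all blood libraries (log2 fold change 1.38 over NMO_Bl_mono, standard error 0.62, adjusted p = 0.802). Fyn, prominent in lymphocytes, was at 97.5, 85.9 and 130 CPM in NMO_Br_mono against 283, 336 and 370 CPM in NMO_Bl_mono and 257, 218 and 156 CPM in Nor_Bl_mono, and all brain libraries were below all blood libraries (log2 fold change -1.66 over NMO_Bl_mono, standard error 0.49, adjusted p = 0.457). Lyn, which phosphorylates both ITAMs and ITIMs, was at 790, 650 and 488 CPM in NMO_Br_mono and 477, 458 and 134 CPM in NMO_Bl_mono (log2 fold change 0.85, adjusted p = 0.811). It was at 517, 550 and 484 CPM in Nor_Bl_mono, which overlapped with brain (log2 fold change 0.31, adjusted p = 1).

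Of 30 genes tested downstream of Syk, 1 was higher and 1 lower at the unadjusted threshold in NMO_Br_mono than in NMO_Bl_mono, beside 5.32% of all genes. Pik3r1, the regulatory subunit of PI 3-kinase, was at 17.3, 98.8 and 48.7 CPM in NMO_Br_mono and between 190 and 243 CPM in all 6 blood libraries (log2 fold change -2.04, standard error 0.65, adjusted p = 0.587). Sh3bp2, an adaptor that binds Syk, was at 135, 83.9 and 194 CPM in NMO_Br_mono and 33.9, 33.3 and 56.0 CPM in NMO_Bl_mono, but it overlapped with Nor_Bl_mono (71.6, 52.5 and 166 CPM). Cybb, the catalytic subunit of the phagocyte NADPH oxidase, had a log2 fold change of -0.62 over NMO_Bl_mono (adjusted p = 1) and -0.94 over Nor_Bl_mono (adjusted p = 0.708). Rac2, a GTPase of phagocytes, had -1.31 over NMO_Bl_mono (adjusted p = 0.802). The median of this list was 0.37.

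Of 22 inhibitors of ITAM signalling, 1 was higher and 1 lower at the unadjusted threshold, beside the same 5.32%. Lilrb4a, an ITIM receptor of myeloid cells whose reads may be shared with its near-identical neighbour Lilr4b, was at 978, 802 and 1091 CPM in NMO_Br_mono, 312, 487 and 253 CPM in NMO_Bl_mono and 291, 430 and 286 CPM in Nor_Bl_mono. Each brain library was far above each blood library, replicate 2 included, and the log2 fold change was 1.45 over NMO_Bl_mono (standard error 0.38, adjusted p = 0.308) and 1.51 over Nor_Bl_mono (standard error 0.38, adjusted p = 0.224). Ptprc, which encodes the phosphatase CD45, was at 1009, 466 and 729 CPM in NMO_Br_mono and between 1149 and 1893 CPM in blood (log2 fold change -1.13 over NMO_Bl_mono, adjusted p = 0.426). Sirpa, the receptor of the CD47 signal, had 0.61 (adjusted p = 1). The median of the list was -0.10. Between NMO_Bl_mono and Nor_Bl_mono, 0 genes of any of the 6 lists passed the unadjusted threshold, beside 0.712% of all genes.

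**Figure D4:**
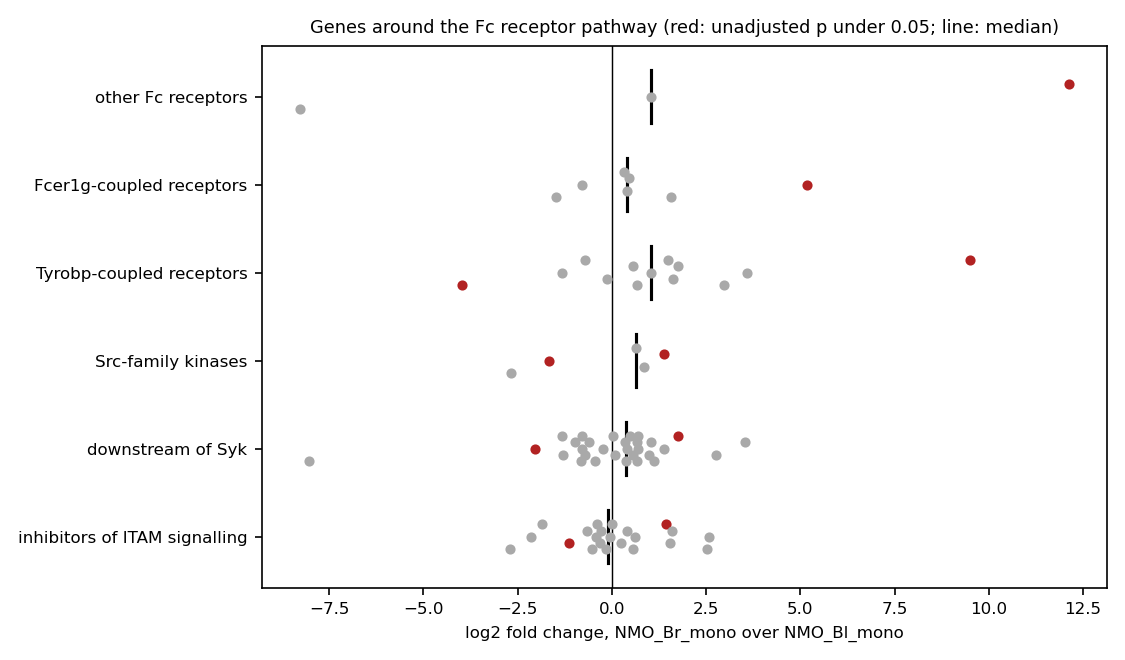
Log2 fold change of NMO_Br_mono over NMO_Bl_mono for each gene tested in the 6 lists around the Fc receptor pathway, with red for an unadjusted p under 0.05 and a line for the median of the list. Red points lay on both sides of 0 in 4 of the 6 lists, and those farthest to the right (Fcrls and Siglech) are fitted against groups at or near 0, where the fitted size depends on the prior count.

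The genes whose levels across the 9 libraries were most like those of each of the 9 genes were found among 2915 genes of at least 50 CPM on average, by the mean absolute difference of centred log2(CPM + 1). Nearest to Fcgr1 were Slc16a3, Osm and Nfe2l2 (0.37 to 0.45, against a median of 1.46 over all candidates). Slc16a3 is a lactate transporter and Osm a cytokine. Nearest to Fcgr3 were Pnp, Rpl36al and the inhibitory receptor Lilrb4a (0.29 to 0.31, median 1.04). Fcer1g was followed most closely by Tnfrsf1b, Akr1a1 and Ifitm3 (0.13 to 0.14, median 0.89), and Tyrobp by Ms4a6c, Gsr and Lamp1 (0.14 to 0.21, median 0.84). The nearest gene was Rnf216 for Fcgrt (0.29), Ifi47 for Fcgr2b (0.45) and Oxct1 for Fcgr4 (0.94). Syk was nearest to Ankle2 (0.24) and Inpp5d to Ddx47 (0.20). Within the 9 genes, the closest pair was Fcer1g and Tyrobp (0.48), then Tyrobp with Syk (0.54). Fcgr3 differed from Fcgr1 by 1.09 on this scale and from Fcer1g by 0.60. All these distances share the same libraries. Without NMO_Bl_mono replicate 3, none of the 3 nearest genes was kept for Fcgr3 and Inpp5d, 1 was kept for Fcgr4 (Rcor1) and for Fcgrt (Rnf216), and 2 for each of the other genes, with Osm lost for Fcgr1. With a pseudocount of 0.1, none was kept for Fcgr4, 1 for Fcgrt and 2 for Fcgr1.

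**Figure D5:**
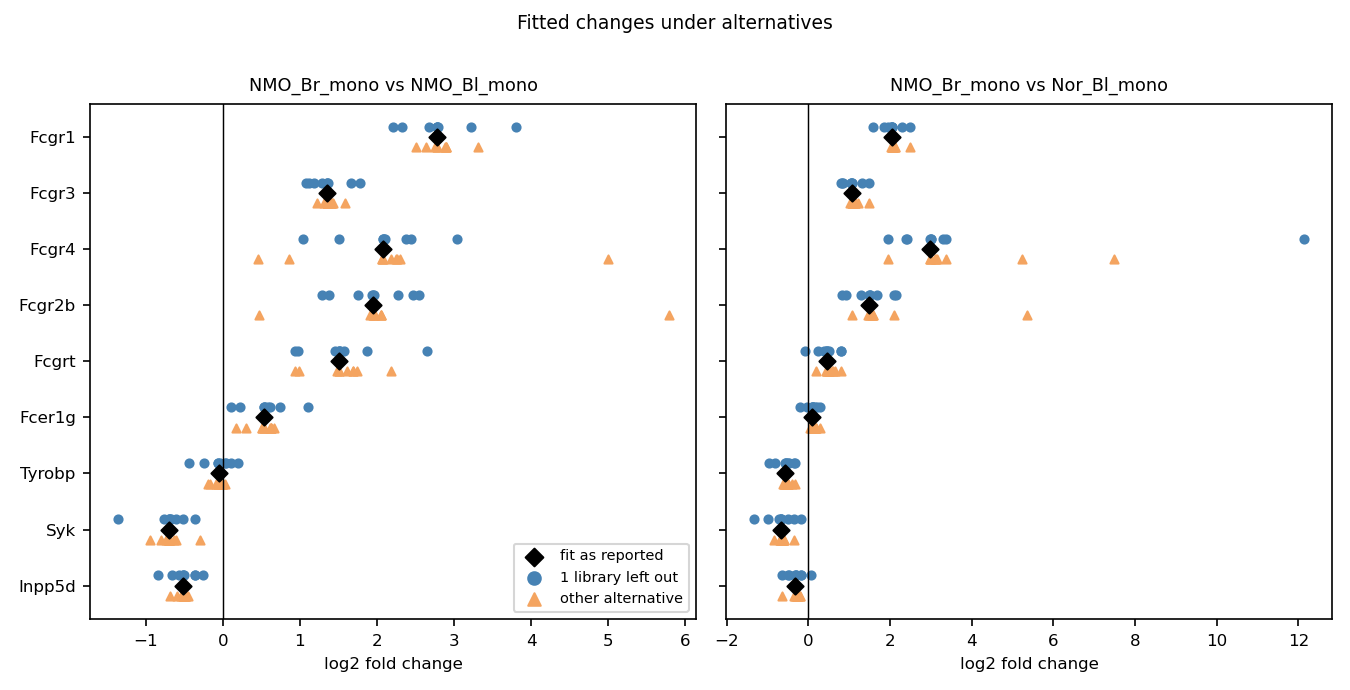
Log2 fold change of the 9 genes as reported (black diamonds), with 1 library left out (blue circles) and under the other alternatives (orange triangles). Fcgr1 stayed between 2.21 and 3.81 and Fcgr3 between 1.08 and 1.78 over NMO_Bl_mono with any 1 library left out, while Tyrobp crossed 0.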

How the data were processed

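RNA of sorted monocytes was sequenced as QuantSeq 3ʹ libraries (single-end). The authors aligned reads with Bowtie2 (build mm10 per the labels) and took coverage per gene from Bedtools, multiple alignments included. They deposited these raw counts per gene symbol, without normalization. Tool versions and the annotation are not given in the sources used here. Groups came from the sample titles.

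A total of 35 symbols occurred repeatedly, and the most counted entry of each was used. All 9 libraries were fitted together with edgeR 4.0.16 (R 4.3.3): filterByExpr, TMM factors, glmQLFit and glmQLFTest, with Benjamini-Hochberg adjustment over 10107 genes. CPM used the same factors. Confidence intervals are at 95%. Alternatives were RLE and TMMwsp factors, library sizes alone, Rn45s left out, other filters, only the groups compared, a replicate block, each library left out, DESeq2 1.42.0 and limma 3.58.1 (voom with quality weights). Leaving out both libraries of most zeros together was added after seeing the data. The test was run on simulated data. Its pass condition was set at a spread far smaller than that of these libraries (common dispersion 2.87), so it does not show performance here.

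Named were the 9 genes, list genes with an unadjusted p under 0.05 in any comparison or among the 3 of highest mean CPM in a list, and the 3 nearest genes to each. The members and lists were chosen with earlier results of these data known. Symbols Sirpb1c, Ly6g, Ighm, Trac and Trbc2 were not analysed here. Sequences came from GENCODE vM21 and RefSeq (GRCm38.p6).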

Additional observations from a re-analysis of the deposited data

How the results depend on the processing

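No gene of the 9 passed an adjusted p of 0.05 in any comparison under any alternative run, beside 0% to 3.52% of all genes. At the unadjusted threshold, the count for NMO_Br_mono against NMO_Bl_mono was 1 (Fcgr3). It became 0 with library sizes alone, no filter, only the groups compared, DESeq2 and the replicate block (beside 3.21% to 7.67% of all genes). It became 2 (Fcgr1 and Fcgr3) with limma-voom (beside 12.8% of all genes) and without NMO_Bl_mono replicate 3 and NMO_Br_mono replicate 2 together (beside 6.75%). With single libraries left out it ranged from 0 to 2, beside 3.41% to 6.25% of all genes. Fcgr3 was not called without NMO_Br_mono replicate 1 or 3, NMO_Bl_mono replicate 1 or 3, or Nor_Bl_mono replicate 2. Fcgr1 was called without NMO_Bl_mono replicate 3 (beside 6.25%) and Fcer1g without NMO_Bl_mono replicate 2 (beside 3.41%). For NMO_Br_mono against Nor_Bl_mono, the count of 0 became 1 (Fcgr3) with at least 10 counts in every library. Only 5 of the 9 genes were tested there, and 11.7% of all genes were called. The count became 1 (Fcgr1) with only the groups compared, beside 6.6% of all genes. It was 2 without both libraries (beside 9.61%) and 3 with limma-voom (beside 11.7%). With single libraries left out it ranged from 0 to 1. Fcgr4 was called without Nor_Bl_mono replicate 1 (beside 3.74% of all genes) and Fcgr1 without NMO_Bl_mono replicate 3 (beside 8.18%). Tyrobp was called without NMO_Br_mono replicate 1 (beside 5.95%) and Fcgr3 without NMO_Br_mono replicate 2 (beside 4.65%). For NMO_Bl_mono against Nor_Bl_mono the count ranged from 0 to 1. Fcgr4 was called without Nor_Bl_mono replicate 1, against a group then at 0 (beside 0.831% of all genes). The cause was not tested.

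Some directions turned. Tyrobp over NMO_Bl_mono was 0.0235 with TMMwsp factors. For NMO_Bl_mono over Nor_Bl_mono, Fcgr2b was 0.61, Fcer1g 0.000341 and Syk -0.22 with limma-voom, and Fcgr2b 0.12, Syk -0.0519 and Inpp5d -0.0508 without both libraries. With single libraries left out, log2 fold changes ranged from -0.44 to 0.20 for Tyrobp over NMO_Bl_mono; from -0.22 to 0.29 for Fcer1g, -0.65 to 0.0708 for Inpp5d and -0.0909 to 0.81 for Fcgrt in NMO_Br_mono over Nor_Bl_mono; and from -0.32 to 0.53 for Syk, -1.05 to 0.20 for Fcgr2b, -0.0550 to 10.1 for Fcgr4 and -0.0506 to 0.57 for Inpp5d between the blood groups.

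Deviations of same-numbered libraries correlated at 0.06, -0.01 and 0.01 between NMO_Br_mono and NMO_Bl_mono, and at 0.12, 0.02 and 0.07 between NMO_Bl_mono and Nor_Bl_mono, where each library correlated best with its own number. No source ties the numbers to a shared day or animal, and not every pair was above 0.1, so the number was not taken as a pairing. Nor_Bl_mono replicate 1 and NMO_Bl_mono replicate 1 differed least of all pairs of libraries (chi-square per degree of freedom 40.4, against 82.7 or more within a group). With the number as a block, unadjusted calls over all genes fell from 538 to 368 for NMO_Br_mono against NMO_Bl_mono and from 72 to 30 between the blood groups. A common dispersion of 2.87 and a count of 0 for up to 3 libraries of a receptor limit what these libraries can show.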
